A study of Homo sapiens with 6 samples.

Results

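The actin cytoskeleton module examined here holds 38 genes. They encode actins, actin-binding proteins and non-muscle myosin subunits, together with serum response factor (SRF) and its actin-sensing coactivators MRTFA and MRTFB. Members were found by gene symbol in the count table, which held all 38 among 60664 genes. The libraries came from PC9OR, a lung cancer cell line. Of 6 libraries, 3 were labelled si-GLMP, with GLMP knockdown as their genotype, and 3 were labelled NC, with Control as theirs, and the labels give no other treatment or time. GLMP encodes a glycosylated lysosomal membrane protein, and the series title links it to EGFR inhibitor resistance, autophagy and the RhoA pathway.

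Actin exists in cells as free monomers and as filaments. MRTF proteins bind the free monomers and stay in the cytoplasm while monomers are plentiful. When RhoA signalling drives filament assembly, MRTFs are released, enter the nucleus and join SRF on DNA elements called CArG boxes. Many of the genes so controlled encode actin and the proteins that bundle, cap, pull on and anchor its filaments, so the pathway adjusts the supply of its own building blocks. In epithelial cells these proteins form the cortical actin belt, stress fibres and focal adhesions.

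Library totals ran from 20313899 to 21041277 counts in si-GLMP and from 19896875 to 22372878 counts in NC. Levels are given in CPM, the count of a gene relative to its TMM-scaled library total, and 3 counts corresponded to between 0.133 and 0.151 CPM. GLMP itself fell in every si-GLMP library, with 4.01, 2.88 and 3.15 CPM in si-GLMP replicates 1 to 3 against 15.5, 16.8 and 15.4 CPM in NC replicates 1 to 3 (log2 fold change -2.25 ± 0.14 SE, Benjamini-Hochberg adjusted p = 1.16e-18 by edgeR's quasi-likelihood test). Mitochondrially encoded genes took 5.19% to 5.51% of the counts in si-GLMP, and 6.57%, 8.76% and 6.51% in NC replicates 1 to 3. NC replicate 2 also had the highest NC value in 26 of 37 tested members, and results that turn on it are given without it too. Within si-GLMP, replicate 1 had the highest value in 22 of the 37 members and replicate 2 the lowest in 20. The epithelial markers EPCAM, CDH1, KRT7, KRT8, KRT18 and KRT19 were all abundant, with summed counts of 173276 to 190168 per library in si-GLMP and 186192 to 205267 in NC. Of these, EPCAM and CDH1 were higher and KRT7 lower. The 7 fibroblast markers summed to 227 to 261 counts per library in si-GLMP and 138 to 164 in NC, with COL3A1 at 0 in every library. Most of these counts came from COL1A1, a collagen chain, which was higher, with 218, 198 and 211 counts in si-GLMP and 127, 107 and 102 in NC (0.91 ± 0.14 log2, edgeR adjusted p = 1.59e-06). The part of these markers in the results was not tested. Of 4 leukocyte markers, LYZ and TYROBP were at 0 in every library. PTPRC had 8 counts summed over si-GLMP and 6 over NC, and CD68 had 8 over si-GLMP and 3 over NC. The endothelial markers PECAM1, VWF and CDH5 together had 140 to 161 counts per library in si-GLMP and 96 to 157 in NC. All 3 were tested and not called.

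Part of the module was lower in si-GLMP, and a single member was higher. The filter on low counts kept 37 members, and CNN1 was the one left out. Of the 37, 16 were lower and 1 higher at an edgeR adjusted p under 0.05, and 20 were not called. Over all 15900 tested genes, 11.3% were lower and 12% higher, 23.3% in either direction. The members' median log2 fold change was -0.14, against 0.0036 over all tested genes. In 20 of 37 members every si-GLMP value lay on one side of every NC value, where 36.5% of all tested genes did so. In bulk RNA, fewer cells with a transcript and less of it per cell cannot be told apart. Most members were abundant, and abundant genes were called more often. Among 9247 tested genes with a mean of at least 10 CPM, 14.9% were lower and 16.2% higher, and among the 32 members at that level 14 were lower and 0 higher. Full separation of si-GLMP from NC values was seen in 17 of these 32 members, beside 44.7% of the 9247 genes. Without NC replicate 2 the module had 13 lower members, and ACTA2, ZYX and MYH10 lost their calls.

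**Figure D1:**
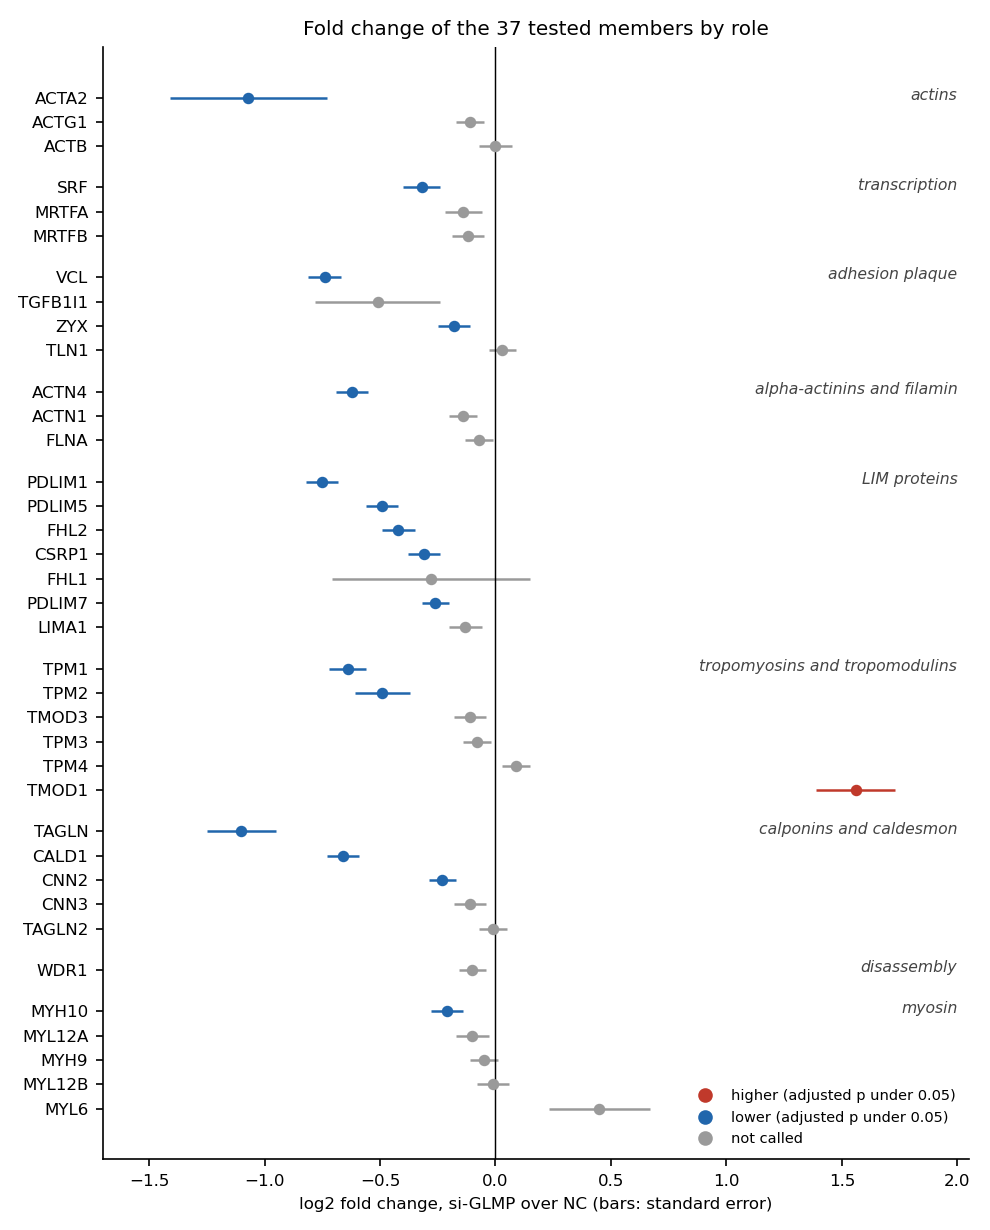
Log2 fold change of si-GLMP over NC for the 37 tested members, arranged by role, with standard errors as bars and colour for the edgeR call. The 16 lower members lie between -1.10 (TAGLN) and -0.18 (ZYX), and TMOD1 alone is higher, at 1.56.

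The cytoplasmic actins were the most abundant members and were not called. Levels between genes are compared per kilobase (kb) of merged exons. ACTG1 encodes gamma-actin and had 2568 CPM per kb in si-GLMP and 2778 CPM per kb in NC, the highest of the module. ACTB, beta-actin, came next with 1444 CPM per kb in si-GLMP and 1443 in NC. By library, ACTB had 5304, 4967 and 4979 CPM in si-GLMP against 4910.4, 5564 and 4755 CPM in NC. The groups overlapped, since NC replicate 2 lay above all si-GLMP libraries and NC replicates 1 and 3 lay below them. ACTB changed by 0.00 ± 0.07 log2 and was not called (edgeR adjusted p = 0.989), with an approximate 95% interval of -0.13 to 0.13. ACTG1 had 8252, 7230.3 and 7575 CPM in si-GLMP and 8258, 8666 and 8016 CPM in NC. NC replicate 1 lay just above the highest si-GLMP value and NC replicate 3 below it, and the fold change was -0.11 ± 0.06 (edgeR adjusted p = 0.216, interval -0.24 to 0.01). ACTG1 made up 64.0% ± 0.780 of the summed ACTB and ACTG1 counts per kb in si-GLMP and 65.9% ± 1.02 in NC (SD, n = 3 each), with no overlap, and this difference was not tested. Both genes have many processed pseudogenes. The reference annotation names 10 for ACTB and 20 for ACTG1, and these drew 162 and 141 counts summed over si-GLMP and 174 and 134 over NC.

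ACTA2, the smooth muscle alpha-actin, was scarce. Its counts were 23, 9 and 14 in si-GLMP and 22, 40 and 36 in NC. Si-GLMP replicate 1 overlapped the lowest NC library, at 1.12, 0.424 and 0.678 CPM in si-GLMP and 1.10, 1.96 and 1.60 CPM in NC. The gene was called lower (-1.07 ± 0.34 log2, edgeR adjusted p = 0.0165), but the call was lost without single libraries. Without NC replicate 2, si-GLMP replicate 2 or si-GLMP replicate 3 the adjusted p was 0.112, 0.133 and 0.0805. In the annotation 30.1% of its exonic length lies opposite FAS and ACTA2-AS1, and whether counting used strand is not stated in the sources at hand. FAS was not called (-0.10 log2, edgeR adjusted p = 0.694). Of 6 smooth muscle markers, ACTG2, the enteric smooth muscle actin, was lower as well, with 17, 10 and 18 counts in si-GLMP against 38, 47 and 45 in NC (-1.51 ± 0.31 log2, edgeR adjusted p = 0.000145) and no overlap. MYOCD was at 0 in every library, and DES had 12 counts summed over si-GLMP and 27 over NC. SMTN, smoothelin, was the most abundant of the markers and was not called, at 34.8 ± 1.66 CPM in si-GLMP and 35.7 ± 2.40 CPM in NC (SD, n = 3 each; -0.03 log2, edgeR adjusted p = 0.832). The 6 markers together had 752 to 808 counts per library in si-GLMP and 810 to 879 in NC, most of them from SMTN, and their part in the ACTA2 and TAGLN results was not tested.

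Of the transcription factors, SRF was lower and its coactivators were not called. SRF binds the CArG box as a dimer and is itself one of its own targets. It had 58.5, 49.7 and 59.7 CPM in si-GLMP against 68.1, 70.6 and 71.1 CPM in NC. All si-GLMP libraries were below all NC libraries, and replicate 2 was the lowest. SRF was called lower (-0.32 ± 0.08 log2, edgeR adjusted p = 0.00105). MRTFA had 48.9 ± 3.45 CPM in si-GLMP and 53.9 ± 1.22 CPM in NC (SD, n = 3 each), a log2 change of -0.14 ± 0.08 that was not called (edgeR adjusted p = 0.208). MRTFB had 83.9 ± 4.81 CPM in si-GLMP and 91.1 ± 7.15 CPM in NC (-0.12 log2, edgeR adjusted p = 0.261). The approximate 95% intervals of the fold changes were -0.29 to 0.01 for MRTFA and -0.26 to 0.02 for MRTFB. MRTFs are controlled largely by where they are in the cell, which transcript levels do not show.

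Promoter sequences were searched for the CArG box, 2 C bases, 6 bases that are each A or T, and 2 G bases, a pattern that reads alike on both strands. RefSeq promoter windows of GRCh38.p14, from 250 bases before to 50 after a gene's start, were found for 36 members, 81 windows in all. ACTB, which was not called, and TAGLN, which was lower, had no window and were not searched. A box was present in 11 of these windows (13.6%), and in 454 of 35116 windows of all genes (1.29%). The members were chosen as actin genes under SRF and MRTF, so their share of boxes cannot be read as a result of these data. By gene, 9 of 36 members had a box in at least 1 window. Of all genes with a window, 438 of 27305 had a box (1.60%), and of the tested genes, 167 of 10956 (1.52%). Members with a box were SRF, CNN2 and FHL2, which were lower, and ACTG1, FLNA, ACTN1, TPM4, TGFB1I1 and FHL1, which were not called. Thus 3 of 15 lower members with a window carried a box, and so did 6 of 19 that were not called. The sequences given here show the boxes, in capitals, with up to 45 bases on each side and none past the start of the gene, 5′ to 3′ on the strand of the gene. They are shown because the lower members SRF, CNN2 and FHL2 and the members ACTG1 and FLNA, which were not called, carry the same element.
SRF (chr6:43171194-43171268, plus strand): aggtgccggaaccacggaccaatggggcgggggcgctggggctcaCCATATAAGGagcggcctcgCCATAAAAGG
CNN2 (chr19:1026474-1026573, plus strand): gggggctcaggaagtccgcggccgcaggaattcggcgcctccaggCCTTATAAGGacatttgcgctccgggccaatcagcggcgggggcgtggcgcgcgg
FHL2 (chr2:105399056-105399155, minus strand): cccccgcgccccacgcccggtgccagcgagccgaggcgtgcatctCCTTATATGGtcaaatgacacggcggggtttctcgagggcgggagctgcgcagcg
ACTG1 (chr17:81512839-81512938, minus strand): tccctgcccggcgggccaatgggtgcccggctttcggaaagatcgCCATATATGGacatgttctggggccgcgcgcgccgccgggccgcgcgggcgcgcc
FLNA (chrX:154374674-154374773, minus strand): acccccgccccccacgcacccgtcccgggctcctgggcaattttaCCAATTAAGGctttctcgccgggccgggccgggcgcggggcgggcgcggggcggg

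SRF had a pair of boxes, of which the first began 30 bases and the second ended 1 base before its start. In CNN2 the box began 89 bases before the start, in FHL2 59 bases, and in both ACTG1 and FLNA 94 bases. FHL2 has several starts, and 1 further box lay in the windows of another pair of them. A match is only a match of letters, and binding was not measured.

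At adhesion plaques, where filaments are anchored to integrins, vinculin stood out. VCL (ENSG00000035403; chromosome 10, 73995193 to 74121363 on the plus strand of GRCh38) encodes vinculin, which ties talin to actin and reinforces adhesions under tension. It had 372, 351 and 329 CPM in si-GLMP against 559.8, 630.1 and 564 CPM in NC. The highest si-GLMP library was far below the lowest NC library. VCL fell by 40.1% (-0.74 ± 0.07 log2, edgeR adjusted p = 2.09e-13). The gene shares 11.1% of its exonic length with AP3M1 on the opposite strand, and AP3M1 was not called (0.14 log2, edgeR adjusted p = 0.149). TLN1, the talin that vinculin binds, had 268, 247 and 268 CPM in si-GLMP and 267, 252 and 248 CPM in NC, with overlap and no call (0.03 ± 0.06 log2, interval -0.10 to 0.16, edgeR adjusted p = 0.793). ZYX, zyxin, a LIM protein that moves to strained filaments, had 211, 187 and 196 CPM in si-GLMP and 219, 232 and 223 CPM in NC. It passed narrowly (-0.18 ± 0.07 log2, edgeR adjusted p = 0.0332) and lost its call when any one library other than si-GLMP replicate 1 was left out, with adjusted p between 0.0849 and 0.128, and also with no filter on low counts (0.0825). TGFB1I1, the paxillin relative Hic-5, was scarce at 1.61, 0.990 and 1.55 CPM in si-GLMP and 2.01, 2.15 and 1.78 CPM in NC, without overlap and without a call (edgeR adjusted p = 0.174).

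Of the large crosslinkers, ACTN4 was lower and its paralog ACTN1 was not called. Alpha-actinins are rod-shaped dimers that bundle filaments. ACTN4 (ENSG00000130402; chromosome 19, 38647649 to 38731583, plus strand) had 996, 842 and 906 CPM in si-GLMP against 1362, 1504 and 1359 CPM in NC. The groups were well apart, with a fall of 35.0% (-0.62 ± 0.07 log2, edgeR adjusted p = 6.43e-11). ACTN4 shares 14.2% of its exonic length with CAPN12 on the opposite strand, which had 1.77 ± 0.332 CPM in si-GLMP and 1.60 ± 0.337 CPM in NC (SD, n = 3 each). ACTN1 had 902, 841 and 837 CPM in si-GLMP and 924, 1030.2 and 896 CPM in NC. Its groups overlapped (-0.14 ± 0.06 log2, edgeR adjusted p = 0.102). Without si-GLMP replicate 1 ACTN1 was called lower (adjusted p = 0.0495), and without NC replicate 2 its fold change was -0.08. Per kb, ACTN4 made up 65.8, 63.6 and 65.3% of the pair in si-GLMP replicates 1 to 3 and 72.0, 71.8 and 72.5% in NC replicates 1 to 3. The share was lower in each si-GLMP library than in any NC library, and the difference was not tested. FLNA, filamin A, which crosslinks filaments into a flexible net, was the third most abundant member per kb and was not called. It had 4464 ± 245 CPM in si-GLMP and 4686 ± 74.3 CPM in NC (SD, n = 3 each; -0.07 ± 0.06 log2, edgeR adjusted p = 0.471). Its groups were narrowly apart, with 4623 CPM the highest in si-GLMP and 4633 CPM the lowest in NC.

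**Figure D2:**
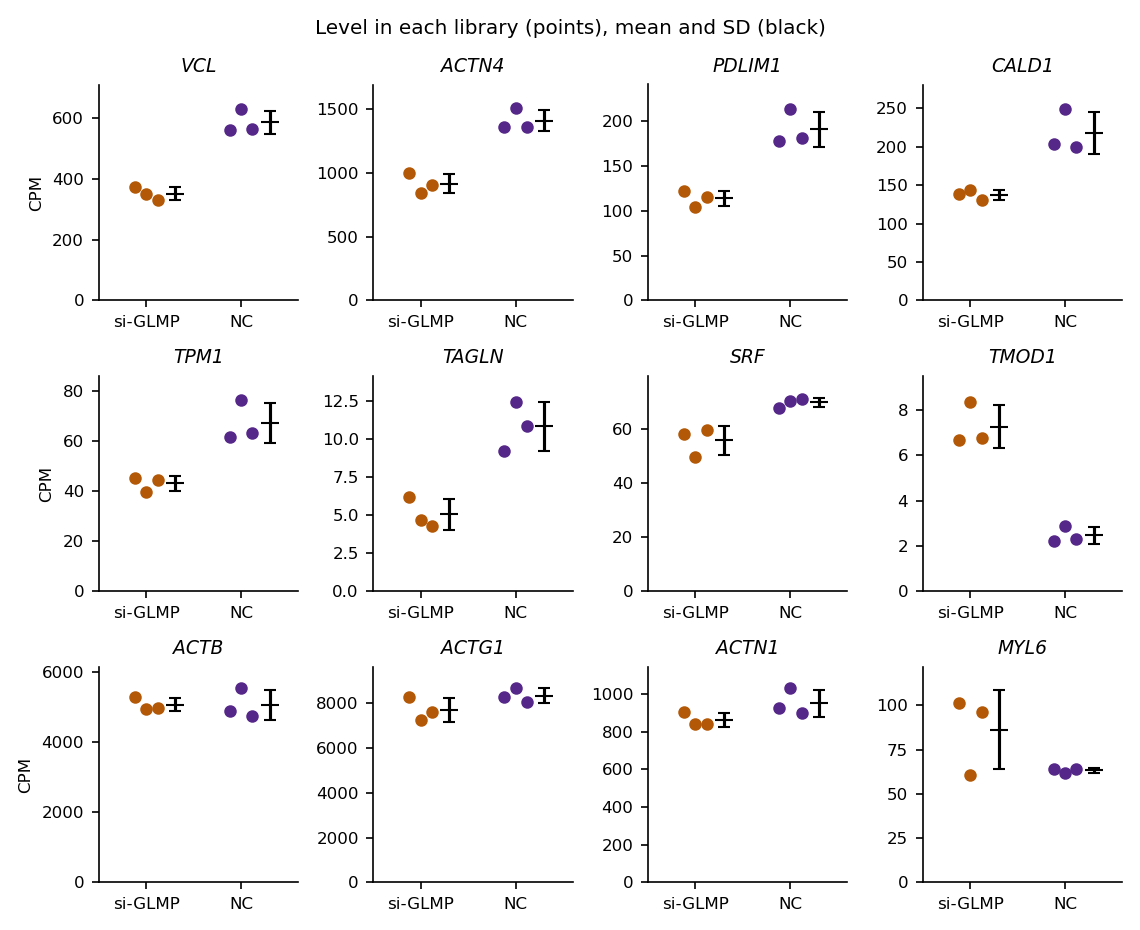
Level in CPM of 12 members in each of the 3 si-GLMP and 3 NC libraries (points), with the mean and SD in black and each vertical axis starting at 0. VCL, ACTN4, PDLIM1, CALD1, TPM1, TAGLN and SRF are lower in all si-GLMP libraries, TMOD1 is higher in all of them, and the groups of ACTB, ACTG1, ACTN1 and MYL6 overlap.

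Genes of LIM proteins, which dock signalling proteins onto filaments, were lower in 5 of 7 cases, beside 11.3% of all tested genes. ZYX and TGFB1I1, given above with the adhesion plaques, also encode LIM proteins and were not counted among these 7. ZYX was lower and TGFB1I1 was not called. PDLIM1, a PDZ and LIM protein that binds alpha-actinin, had 121, 104 and 115 CPM in si-GLMP against 178, 213 and 180.3 CPM in NC, the deepest fall of the group at 40.4% (-0.75 ± 0.07 log2, edgeR adjusted p = 5.48e-12). Its relatives PDLIM5 (-0.49 ± 0.07 log2, edgeR adjusted p = 7.29e-08) and PDLIM7 (-0.26 ± 0.06, adjusted p = 0.00199) fell too. All 3 had si-GLMP values entirely below the NC values. By library PDLIM5 had 123, 134 and 123 CPM in si-GLMP and 171, 190.0 and 173 CPM in NC. PDLIM7 had 182, 165 and 179.9 CPM in si-GLMP and 207, 213 and 210.3 CPM in NC. Within the family, the share of PDLIM1 per kb was 49.6% ± 1.20 in si-GLMP and 57.1% ± 1.87 in NC (SD, n = 3 each), and that of PDLIM7 was 39.1% ± 0.409 in si-GLMP and 32.1% ± 1.76 in NC. Neither share overlapped between the groups.

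FHL2, a LIM-only cofactor that can travel between filaments and the nucleus, had 139, 123 and 122 CPM in si-GLMP and 167, 172 and 175 CPM in NC (-0.42 ± 0.07 log2, edgeR adjusted p = 2.50e-06). CSRP1, a small LIM protein of actin bundles, had 241, 201 and 194 CPM in si-GLMP and 267, 265 and 257 CPM in NC (-0.31 ± 0.07 log2, edgeR adjusted p = 0.00043). Both fell without overlap, and in both si-GLMP replicate 1 was the highest of its group. LIMA1, or EPLIN, a stabiliser of filaments at cell junctions, was not called, with 353, 406 and 369 CPM in si-GLMP and 379.9, 447 and 406 CPM in NC (-0.13 ± 0.07 log2, edgeR adjusted p = 0.167). It was called lower without si-GLMP replicate 2 (adjusted p = 0.0464). FHL1, a muscle relative of FHL2, had only 10, 12 and 12 counts in si-GLMP and 8, 12 and 22 in NC, too few for a difference to be seen (interval -1.12 to 0.56 log2).

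Tropomyosins, the coiled coils that run along filaments and set which proteins can bind them, differed among themselves. TPM3 and TPM4 had most of the family's reads and were not called. TPM1 and TPM2 were scarce and fell. TPM1 had 45.2, 39.6 and 44.3 CPM in si-GLMP against 61.7, 76.4 and 63.3 CPM in NC, a fall of 35.9% (-0.64 ± 0.08 log2, edgeR adjusted p = 1.39e-08). TPM2 had 10.6, 8.30 and 12.3 CPM in si-GLMP against 14.5, 14.9 and 14.4 CPM in NC (-0.49 ± 0.12 log2, edgeR adjusted p = 0.00197). In neither gene did the groups overlap, and NC replicate 2 was the highest NC library in both. TPM3 averaged 783 ± 22.3 CPM in si-GLMP and 827 ± 74.9 CPM in NC (SD, n = 3 each; -0.08 ± 0.06 log2, edgeR adjusted p = 0.421). TPM4 averaged 738 ± 56.7 CPM in si-GLMP and 695 ± 40.8 CPM in NC (0.09 ± 0.06 log2, edgeR adjusted p = 0.365). As shares of the family per kb, TPM4 held 46.1% ± 1.45 in si-GLMP and 42.7% ± 0.844 in NC, TPM1 held 1.81% ± 0.197 in si-GLMP and 2.76% ± 0.142 in NC, and neither overlapped. TPM3 has 8 named pseudogenes, with 2027 counts summed over si-GLMP and 1999 over NC, so reads that the copies share leave its level uncertain. TPM1 has antisense genes over 21.4% of its exonic length, TPM1-AS and AC079328.2. TPM1-AS had 1 count in all 6 libraries together, and the counts of AC079328.2 were not examined.

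**Figure D3:**
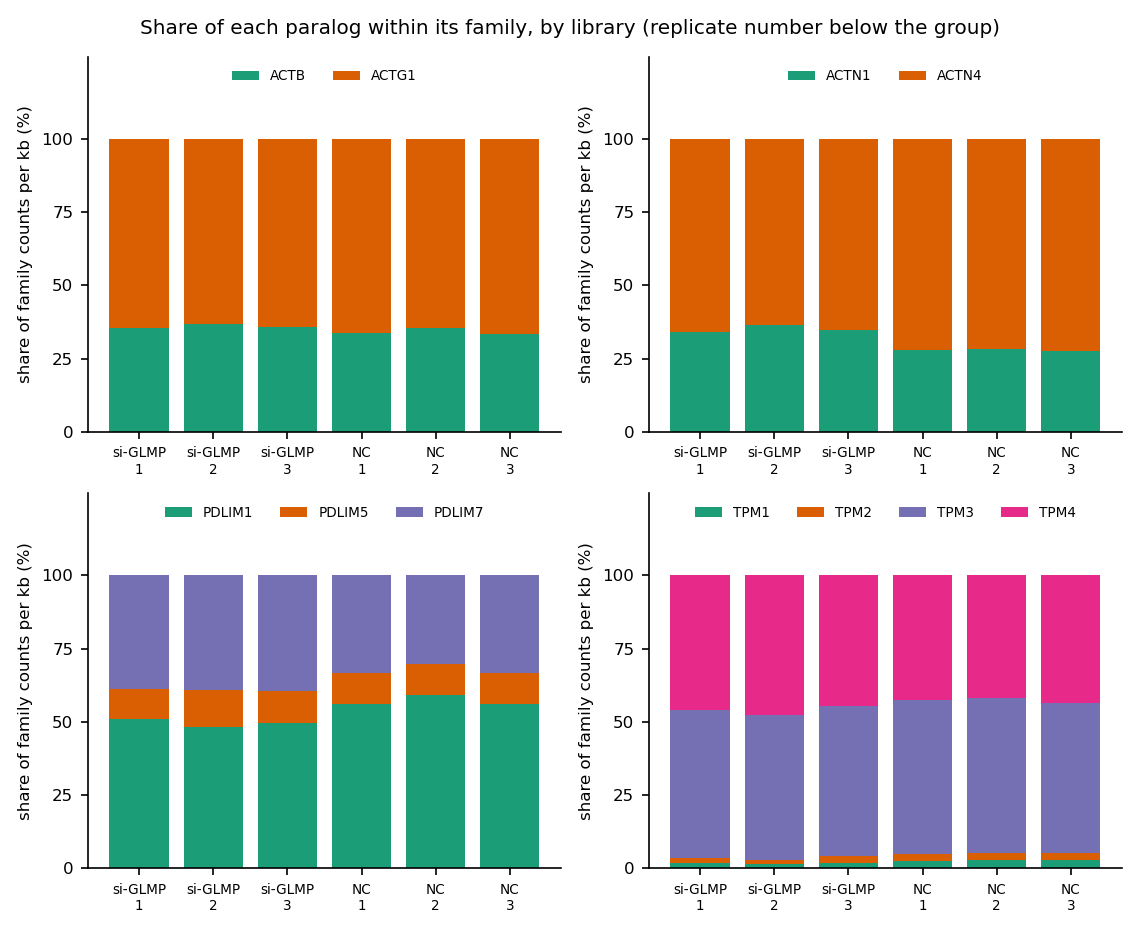
Share of each paralog in the counts per kb of its family, as stacked bars for each of the 3 si-GLMP and 3 NC libraries. ACTN4 holds 63.6% to 65.8% of the alpha-actinin pair in si-GLMP and 71.8% to 72.5% in NC, and PDLIM1 holds 48.4% to 50.8% of its family in si-GLMP and 56.0% to 59.2% in NC.

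Tropomodulins cap the slow-growing, pointed end of filaments, and TMOD1 was the one member that rose. TMOD1 (ENSG00000136842; chromosome 9, 97501180 to 97601748, plus strand) had 137, 177 and 140 counts in si-GLMP and 44, 59 and 52 in NC, which is 6.70, 8.35 and 6.78 CPM in si-GLMP against 2.21, 2.89 and 2.31 CPM in NC. Every si-GLMP library was far above every NC library (1.56 ± 0.17 log2, edgeR adjusted p = 3.78e-10). The annotation places 45% of its exonic length opposite TSTD2. TSTD2 had 19.6, 19.8 and 18.8 CPM in si-GLMP and 21.1, 19.8 and 21.1 CPM in NC and was not called (-0.09 log2, edgeR adjusted p = 0.556). TMOD3, the widely expressed tropomodulin, had much more RNA, 9.42 CPM per kb in si-GLMP and 10.2 in NC, where TMOD1 had 1.96 CPM per kb in si-GLMP and 0.666 in NC. TMOD3 was not called (-0.11 ± 0.07 log2, interval -0.25 to 0.02, edgeR adjusted p = 0.248).

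Calponins and caldesmon bind along filaments and can hold back myosin. In their group, which here also held the transgelins TAGLN and TAGLN2, 3 of 5 tested genes were lower. Over all tested genes 11.3% were lower. TAGLN, transgelin or SM22, a classical SRF target of smooth muscle, had 6.21, 4.67 and 4.26 CPM in si-GLMP against 9.19, 12.4 and 10.9 CPM in NC. It fell by 53.4%, the deepest percentage fall in the module (-1.10 ± 0.15 log2, edgeR adjusted p = 4.26e-08), with no overlap. TAGLN2, the epithelial and blood cell paralog, held 99.5% ± 0.0627 of the pair's counts per kb in si-GLMP and 99.0% ± 0.184 in NC (SD, n = 3 each). It was not called, with 713, 617 and 634 CPM in si-GLMP and 671, 635 and 674 CPM in NC (-0.01 ± 0.06 log2, edgeR adjusted p = 0.92). TAGLN shares 11.4% of its exonic length with PCSK7 on the opposite strand, and PCSK7 was not called (-0.01 log2, edgeR adjusted p = 0.948). CALD1, caldesmon, had 138, 144 and 130.3 CPM in si-GLMP and 204, 249 and 199.6 CPM in NC, where NC replicate 2 stood highest (-0.66 ± 0.07 log2, edgeR adjusted p = 3.95e-10).

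CNN2, a calponin of non-muscle cells, had 246, 235 and 239 CPM in si-GLMP and 278, 294 and 274 CPM in NC and fell without overlap (-0.23 ± 0.06 log2, edgeR adjusted p = 0.00455). CNN3, the acidic calponin, was not called, at 205 ± 11.7 CPM in si-GLMP and 220.4 ± 10.9 CPM in NC (SD, n = 3 each; edgeR adjusted p = 0.251). CNN1, the smooth muscle calponin, did not pass the filter, with 9, 3 and 5 counts in si-GLMP and 6, 10 and 6 in NC. Summed, CNN1 had 17 counts in si-GLMP (exact Poisson 95% interval 9.90 to 27.2) and 22 in NC, and a difference was not detectable at this depth. WDR1, a cofactor of cofilin in filament disassembly, was not called (423 ± 19.8 CPM in si-GLMP, 452 ± 15.5 CPM in NC, -0.10 ± 0.06 log2, edgeR adjusted p = 0.293).

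Non-muscle myosin subunits, the motor that pulls on these filaments, were called in 1 of 5 cases, beside 23.3% of all tested genes. MYH9, the main heavy chain, had 3307, 3088 and 3196 CPM in si-GLMP and 3255, 3507 and 3159 CPM in NC and was not called (-0.05 ± 0.06 log2, interval -0.17 to 0.08, edgeR adjusted p = 0.639). MYH10, the minor heavy chain here, was slightly lower, with 94.5, 92.9 and 92.1 CPM in si-GLMP and 108, 116 and 99.5 CPM in NC (-0.21 ± 0.07 log2, edgeR adjusted p = 0.0206). The groups of MYH10 did not overlap, but its call was lost without NC replicate 1 (adjusted p = 0.0916), NC replicate 2 (0.141) or si-GLMP replicate 3 (0.102). Per kb, MYH10 made up 2.83% ± 0.0763 of the pair in si-GLMP and 3.16% ± 0.0914 in NC (SD, n = 3 each). The regulatory light chains MYL12A and MYL12B, neighbours on chromosome 18 and close copies whose shared reads may have been split between them, had fold changes of -0.10 ± 0.07 and -0.01 ± 0.07 log2 and were not called (edgeR adjusted p = 0.305 and 0.926).

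MYL6, the essential light chain, behaved differently between the si-GLMP libraries. It had 102, 60.7 and 96.4 CPM in si-GLMP against 64.2, 61.5 and 64.1 CPM in NC. Si-GLMP replicates 1 and 3 were far above all NC libraries, and si-GLMP replicate 2 was below them. The log2 fold change of 0.45 ± 0.22 was not called (edgeR adjusted p = 0.252). Without si-GLMP replicate 2 it was 0.65 (adjusted p = 2.61e-08), and the call was also made by limma-voom (adjusted p = 0.0087), with the replicate number as a block (0.0393) and with no filter on low counts (0.00171). MYL6B, which adjoins MYL6 on the same strand and shares 1.9% of its exonic length, had 32.5, 25.6 and 31.6 CPM in si-GLMP and 31.5, 32.7 and 31.7 CPM in NC. It too was lowest in si-GLMP replicate 2, and was not called (edgeR adjusted p = 0.488). SMARCC2, on the opposite strand of part of MYL6, had 65.1, 60.7 and 73.1 CPM in si-GLMP and 73.3, 78.6 and 71.4 CPM in NC.

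The scarcer paralog fell and the abundant one was not called for TAGLN beside TAGLN2, and for TPM1 and TPM2 beside TPM3 and TPM4. The same held for MYH10 beside MYH9, though the MYH10 call was lost without single libraries. Other families differed. ACTN4 and PDLIM1 fell although they were the most abundant of their families. FHL2 fell, and its scarcer relative FHL1, with few counts, was not called. CNN2 fell beside CNN3 at a similar level, 77.3 and 77.7 CPM per kb in NC. TMOD1, scarcer than TMOD3, rose. Per kb the 5 most abundant members in NC were ACTG1, ACTB, FLNA, MYH9 and TAGLN2, and edgeR called none of these 5. ACTN4, the sixth, was the most abundant member that fell, at 150.1 CPM per kb in si-GLMP and 231 in NC. The summed share of the module in all counts was 2.93%, 2.73% and 2.83% in si-GLMP replicates 1 to 3 and 3.01%, 3.07% and 2.96% in NC replicates 1 to 3, below every NC value in each si-GLMP library, and this difference was not tested.

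**Figure D4:**
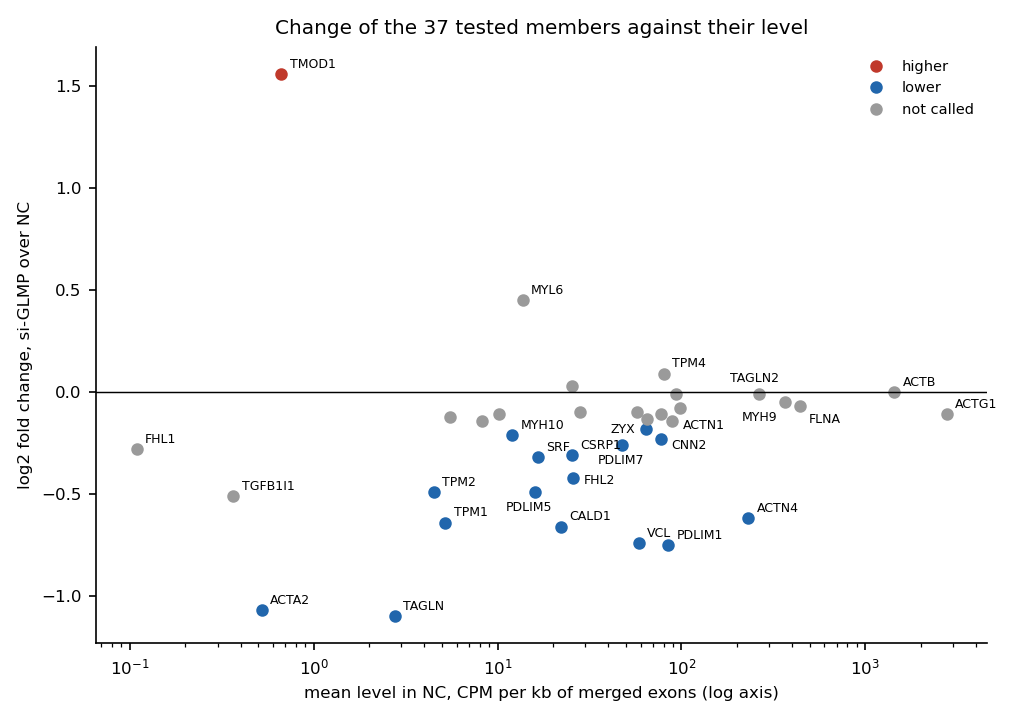
Log2 fold change of si-GLMP over NC for the 37 tested members against their mean NC level in CPM per kb of merged exons, on a log axis. The 5 most abundant members, ACTG1, ACTB, FLNA, MYH9 and TAGLN2, lie between -0.11 and 0.00, and lower members spread over levels from 0.522 (ACTA2) to 231 CPM per kb (ACTN4).

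Genes around the module were read from 8 further lists, whose counts stand beside 11.3% lower and 12% higher over all tested genes. Of 13 tested genes upstream of MRTF, 6 were lower and 1 higher, with a median log2 fold change of -0.12. The lower count was 3 when NC replicate 1, NC replicate 3 or si-GLMP replicate 3 was left out. RHOA, the GTPase of the series title, was not called, at 340.2, 323 and 316 CPM in si-GLMP and 361, 365 and 341 CPM in NC (-0.12 ± 0.06 log2, edgeR adjusted p = 0.161). LIMK1, the kinase that switches off cofilin, had 47.3, 35.7 and 42.1 CPM in si-GLMP against 90.0, 93.3 and 88.4 CPM in NC (-1.12 ± 0.08 log2, edgeR adjusted p = 2.37e-16), and its groups lay far apart. DIAPH3, a formin that builds unbranched filaments, fell as well (-0.69 ± 0.08 log2, edgeR adjusted p = 6.11e-10), while RHOC, a close relative of RHOA, rose (0.33 ± 0.07, adjusted p = 0.00043).

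Of 18 further SRF targets outside the module 6 were lower and 3 higher, beside shares of 11.3% and 12% over all tested genes. CCN1, a matricellular protein, had -1.10 log2 (edgeR adjusted p = 1.36e-18) and MYL9, the smooth muscle regulatory light chain, -1.02 (adjusted p = 8.45e-09). ITGA5, the fibronectin receptor subunit, had 0.71 (adjusted p = 3.03e-12) and JUNB, an AP-1 factor, 0.37 (adjusted p = 2.13e-05). SRF also works with ternary complex factors, the partners that answer to ERK signalling. Of 4 tested genes in a list of these factors and other SRF partners, 1 was lower. It was FHL3, counted among the other partners, at -0.26 log2 (edgeR adjusted p = 0.0313). That call was lost without NC replicate 1, NC replicate 2 or si-GLMP replicate 2 (adjusted p of 0.118 to 0.15). The ternary complex factors ELK1 (-0.19 log2), ELK3 (0.16) and ELK4 (0.17) were not called (edgeR adjusted p = 0.12, 0.0858 and 0.0846).

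Filament turnover genes had 3 higher and 2 lower of 13. PFN2, a profilin that feeds monomers to growing ends, had 0.37 log2 (edgeR adjusted p = 5.84e-05) and CORO1B, a coronin, 0.26 (adjusted p = 0.00199). CFL2, the muscle cofilin, had -0.66 (adjusted p = 1.30e-07) and CAP2, a cyclase-associated protein, -0.45 (adjusted p = 0.00059). Of 6 capping and severing genes 2 were higher, GSN (gelsolin, 0.26 log2, edgeR adjusted p = 0.00492) and CAPZA2 (0.23, adjusted p = 0.019), and 1 lower, CAPZB (-0.18, adjusted p = 0.0424). Leaving out NC replicate 1 or si-GLMP replicate 2 ended the CAPZA2 call, and CAPZB lost its call without any NC library or si-GLMP replicate 3, with adjusted p of 0.108 to 0.261.

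Of 9 genes of the Arp2/3 complex, which makes branched networks, 1 was higher, ARPC5L (0.19 log2, edgeR adjusted p = 0.0398), and 2 lower, ARPC1A (-0.45, adjusted p = 0.0172) and ARPC2 (-0.17, adjusted p = 0.0415). ARPC1A lost its call without NC replicate 1 or si-GLMP replicate 2 or 3, ARPC2 without these or NC replicate 2, and ARPC5L without any library except NC replicate 3, with adjusted p of 0.0515 to 0.249. Other crosslinkers and membrane linkers had 4 lower, with PLS3, a bundling plastin, at -0.27 log2 (edgeR adjusted p = 0.000843) and FLNC, a filamin, at -0.19 (adjusted p = 0.0202), and 1 higher of 11, the plastin PLS1 (0.27, adjusted p = 0.0303). The lower count of this list was 1 when NC replicate 1 or si-GLMP replicate 2 was left out, and 2 when NC replicate 2, NC replicate 3 or si-GLMP replicate 3 was. The FLNC call ended when NC replicate 1 or 3 or si-GLMP replicate 2 was left out, and PLS1 lost its call without NC replicate 2 or 3 or si-GLMP replicate 2 or 3, with adjusted p of 0.0551 to 0.169. Of 9 other myosin genes 3 were lower and 1, MYH14, was higher. Among the 3 was MYO6, a motor that walks towards the pointed end (-0.30 log2, edgeR adjusted p = 0.00119). MYL9, given above with the SRF targets, was another of the 3 and is counted in both lists. MYH14, the remaining non-muscle heavy chain, had 210.1, 184 and 206 CPM in si-GLMP and 132, 148 and 134 CPM in NC (0.54 ± 0.07 log2, edgeR adjusted p = 9.01e-09), whereas MYH9 was not called and MYH10 was lower.

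**Figure D5:**
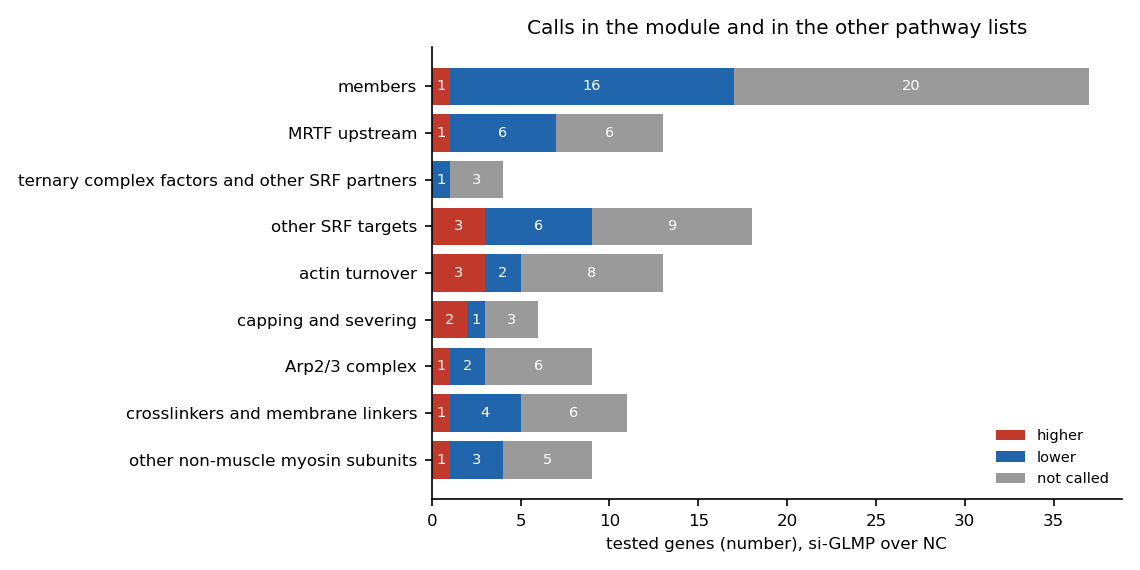
Number of tested genes that were higher, lower or not called in si-GLMP over NC, for the module (top bar) and the 8 further lists. The module has 16 lower and 1 higher of 37, and the further SRF targets have 6 lower and 3 higher of 18. MYL9, which was lower, is counted both with these targets and with the other myosin genes.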

How the data were processed

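The authors deposited read counts per gene as whole numbers, with no normalization. Per the submitters' processing notes, HISAT2 was used with GRCh38; its version, the counter and the use of strand are not given in those sources. Groups and replicate numbers came from sample titles, which do not say whether replicates were separate cultures, so the p-values cover only the spread among the libraries, which may be technical. All 6 count columns matched a sample, with 0 left over.

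Counts were tested with edgeR 4.0.16 in R 4.3.3, with filterByExpr (minimum count 10), TMM factors of 0.9639 to 1.018, robust quasi-likelihood fits and Benjamini-Hochberg adjustment over 15900 genes at 0.05. SE is the fold change divided by the root of F, and approximate 95% intervals span 1.96 SE. Exact Poisson intervals and floors cover counting error only. Exonic lengths and overlaps came from GENCODE 29. Members, lists and tests were chosen with earlier results of these data known. Named were all members, GLMP, RHOA and, per further list, the 2 called genes with the smallest adjusted p in each direction. Neighbouring genes, the markers ACTG2, SMTN and COL1A1, and the factors ELK1, ELK3 and ELK4 were named after their values were seen. The fit was tested on simulated data. DESeq2 1.42.0 and limma 3.58.1 were alternatives.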

Additional observations from a re-analysis of the deposited data

How the results depend on the processing

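Of the 17 called members, 14 kept direction and call in all 14 alternative fits, and ACTA2, ZYX and MYH10 lost the call without single libraries. ZYX also lost it with no filter on low counts, which left 15 lower members, and the lower count was 13 to 17 when 1 library was left out. The higher count was 2 in place of 1, with MYL6 added, with no filter on low counts, with the replicate block, with limma-voom and without si-GLMP replicate 2 (range 1 to 2 without a library). The replicate block left the lower count at 16 and changed no other member's call. Same-numbered libraries deviated from their group means with correlations of 0.104, 0.0618 and -0.0237, and differently numbered ones with -0.0986 to 0.0382. With 3 libraries per group these values cannot decide whether the numbers pair the samples. With an absolute log2 fold change over 0.5 required as well, 7 members were lower. Lower genes of the further lists numbered 24 with MYL9 counted once, and 14 to 23 when 1 library was left out. They numbered 14 without NC replicate 1 and 15 without si-GLMP replicate 3. Members near 0 changed sign without being called. ACTB had -0.0025 with RLE scaling and with DESeq2, -0.01 without mitochondrially encoded genes, and -0.04 to 0.07 without single libraries. TAGLN2 had -0.08 to 0.03, MYL12B -0.05 to 0.04 and FHL1 -0.52 to 0.14 without single libraries. The cause of these changes was not tested. Counts of ACTA2, CNN1, FHL1 and TGFB1I1 were too low for small differences to be seen.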
